A study of Homo sapiens with 4 samples.

Results

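Epithelial-mesenchymal switch genes were followed by symbol: 10 genes were named, of which 7 are listed among the 17472 genes of the deposited table. The listed genes are CDH1, EPCAM, CDH2, FN1, SNAI1, ESRP1 and ESRP2. All 7 passed the filter on low values. SNAI2, ZEB1 and ZEB2 were not analysed here. The data are poly(A) RNA sequencing of H1, an established human embryonic stem cell line, grown in E8, a defined medium that contains FGF2 and TGF-beta. There were 2 libraries of H1 cells overexpressing MEK5DD and 2 libraries of WT H1 cells. MEK5DD is a form of the kinase MAP2K5 (MEK5), described in the labels' protocol as having serines 311 and 315 changed to aspartate. It was brought in by lentivirus and kept by puromycin selection as 1 established line, and no library is labelled as cells given vector and puromycin alone. Vector, selection and subline therefore cannot be told apart from MEK5DD in any comparison given here.

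Epithelial cells hold to each other through E-cadherin (CDH1) at adherens junctions, and many keep the adhesion molecule EPCAM on their surface. When they turn mesenchymal, as in gastrulation, zinc finger repressors of the SNAI and ZEB families bind E-box sequences and silence CDH1, N-cadherin (CDH2) and fibronectin (FN1) come up, and the splicing regulators ESRP1 and ESRP2, which set epithelial exon choice, go down. Human embryonic stem cells grow as an epithelial sheet, with high CDH1 and EPCAM.

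Measured RNA did not move as a block in MEK5DD cells. The repressor gene SNAI1 rose 2.02-fold and the matrix gene FN1 fell by 30.1%. The epithelial adhesion genes CDH1 and EPCAM, the cadherin gene CDH2 and both ESRP genes did not pass the test, with log2 fold changes between -0.15 (CDH2) and 0.19 (ESRP1). Thus 1 of 7 genes was called higher, against 7.69% of all 15721 tested genes, and 1 of 7 was called lower, against 6.47%. Both MEK5DD values lay on one side of both WT values in 6 of the 7 genes (4 above, 2 below), an arrangement shown by 56.2% of tested genes. The median log2 fold change of the 7 genes was 0.07, beside -0.0023 over all tested genes. Calls were made with limma on log2(normalised count + 1), with Benjamini-Hochberg adjusted p-values, taken across every tested gene, and a threshold of 0.05.

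Recovered reads ranged from 14908486 to 17628945 per library. MAP2K5, the gene of the introduced kinase, had normalised counts of 3382 and 3558 in MEK5DD libraries, against 344 and 315 in WT libraries. The 13 stem cell markers, POU5F1, NANOG and SOX2 among them, were all listed, and their summed normalised counts were 163899 to 171372 in MEK5DD and 169296 to 171275 in WT. NANOG was called higher (0.26, adjusted p = 0.0117) and SOX2 lower (-0.20, adjusted p = 0.0437). Neither passed on omitting WT replicate 1 (0.167 for NANOG and 0.485 for SOX2) or WT replicate 2 (0.262 for NANOG and 0.350 for SOX2), with no mean-variance trend (0.167 for NANOG and 0.238 for SOX2), nor did SOX2 in DESeq2 (0.0990). The labels do not say whether replicate libraries came from separate cultures, so the p-values reflect only how far these libraries vary, perhaps for technical reasons alone. With 2 libraries a group, an exact permutation test of 1 gene or ratio cannot go below p = 0.333. Replicates were less alike in MEK5DD, where chi-square per degree of freedom over genes was 5.77, than in WT, where it was 1.84. In bulk RNA a smaller number of cells expressing a gene and less RNA per cell cannot be told apart.

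FN1 lies on chromosome 2 (GRCh38, 215360440 to 215436172, minus strand) and CDH2 on chromosome 18 (27950966 to 28177446, minus strand). The 250 bases before the RefSeq start of each are shown, because FN1 is the gene that fell and CDH2 is the other gene of the mesenchymal side. The FN1 window spans chr2:215436069-215436318 and that of CDH2 chr18:28177131-28177380, both in GRCh38.p14, written 5′ to 3′ on the minus strand. CDH2 has 2 windows in the RefSeq table, of which the first is shown. The gene coordinates above come from GENCODE, which places both starts farther upstream than RefSeq does. By those coordinates the whole CDH2 window and part of the FN1 window lie inside the gene. The CDH2 window thus holds no base upstream of the GENCODE start. Capitals mark the cAMP response element TGACGTCA and the CCAAT box (CCAAT, or ATTGG on the other strand).
FN1: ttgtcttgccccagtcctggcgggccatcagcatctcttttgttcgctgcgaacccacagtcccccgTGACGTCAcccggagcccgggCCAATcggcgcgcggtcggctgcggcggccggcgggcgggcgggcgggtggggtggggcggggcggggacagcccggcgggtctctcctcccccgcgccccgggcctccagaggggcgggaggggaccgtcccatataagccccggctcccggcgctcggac
CDH2: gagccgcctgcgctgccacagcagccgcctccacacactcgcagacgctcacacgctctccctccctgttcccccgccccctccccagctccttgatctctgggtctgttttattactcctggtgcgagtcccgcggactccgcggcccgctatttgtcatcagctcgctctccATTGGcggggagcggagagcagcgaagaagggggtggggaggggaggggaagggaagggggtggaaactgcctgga
The FN1 window held 1 cAMP response element, which begins 183 bases before the start, and 1 CCAAT box, which begins 162 bases before it. The cAMP response element letters stood in 1.65% of all 35116 RefSeq windows of this length and the CCAAT letters in 32% of them. The CDH2 window held 1 CCAAT box, on the other strand, 76 bases before the start, and no cAMP response element. Neither window held CAGGTG or its reverse complement CACCTG, the E-box that SNAI and ZEB proteins bind, which stood in 17.5% of windows. Both strands were searched in each case. A match is a run of letters, not a shown binding site, and a missing match says only that those letters are not in the window. Promoter windows of CDH1, EPCAM, SNAI1 and ESRP2 were not analysed here.

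**Figure D1:**
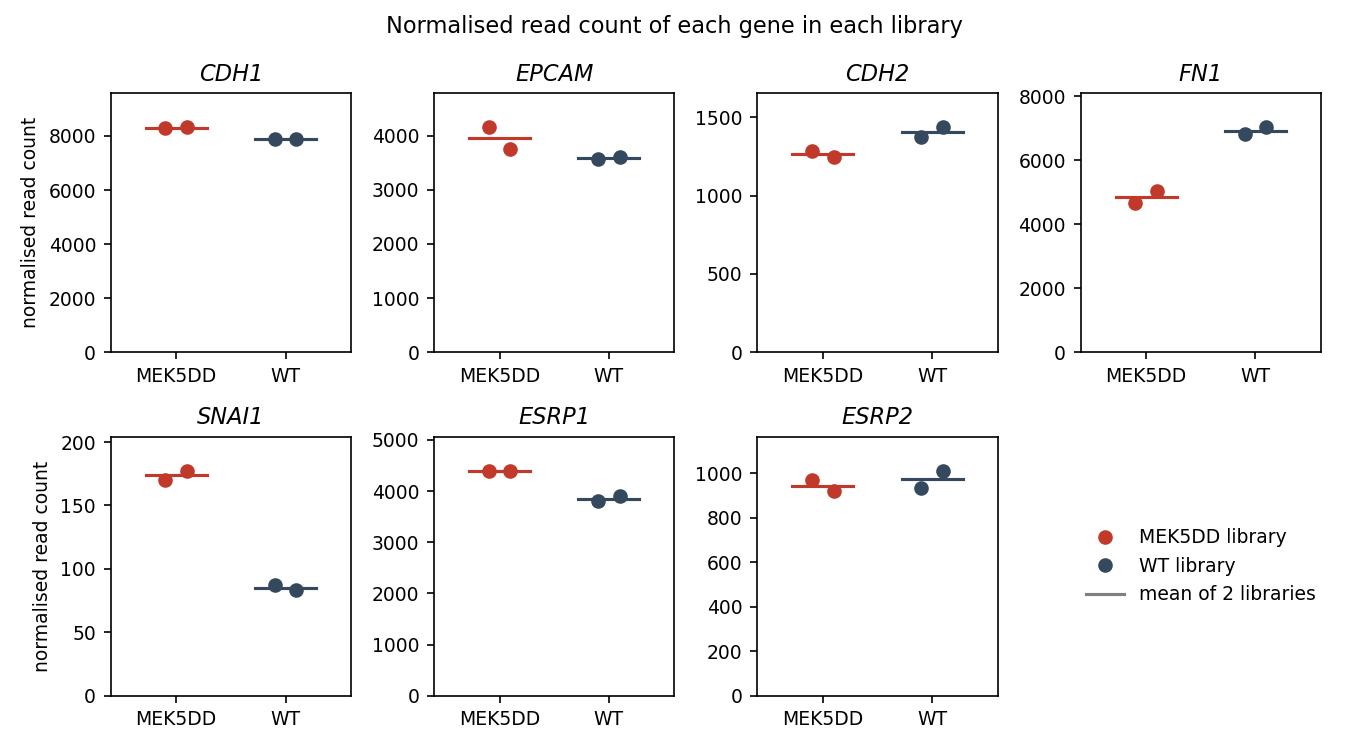
Normalised read count (vertical axes, each from 0) of the 7 genes in each MEK5DD library (left in each panel, red) and each WT library (right, dark blue), with the mean of each pair as a line. SNAI1 sits at 170 and 177 in MEK5DD against 87.2 and 83.3 in WT, FN1 is lower in both MEK5DD libraries, and only ESRP2 has overlapping groups.

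SNAI1 is the gene for the repressor Snail. Its normalised count was 170 and 177 in MEK5DD libraries, against 87.2 and 83.3 in WT libraries. Both MEK5DD values lay well above both WT values, and replicates differed by 0.06 (log2) within each group. The means were 174 ± 5.30 in MEK5DD and 85.3 ± 2.74 in WT (SD, n = 2 each). The rise was 1.02 on the log2 scale (SE 0.14, 95% interval 0.70 to 1.33, adjusted p = 0.000649 from limma). These counts rest on 187 and 178 recovered reads in MEK5DD and 99 and 80 in WT, the fewest of the 7 genes. Across all 15 alternative fits its log2 fold change ran from 0.95 to 1.05, and it passed in each of them, with adjusted p from 4.26e-08 to 0.0310. Only 3.30% of tested genes had a larger absolute change. SNAI1 lies on chromosome 20 (GRCh38, 49982999 to 49988886, plus strand) and has 1686 bases of annotated exon. Per kilobase of exon its normalised count was 101 and 105 in MEK5DD and 51.7 and 49.4 in WT. This placed it at the 65.3 and 66.3 percentile of 17083 annotated genes in MEK5DD, against the 50.7 and 49.7 percentile in WT, so it ranked higher among annotated genes in MEK5DD.

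Snail acts with corepressors and is held down by degradation, and a list of 20 such cofactors of SNAI and ZEB proteins had 19 tested genes. Of these 2 were called higher and 1 lower, with a median log2 fold change of -0.05. That is 15.8% called, close to the 14.2% of all tested genes. The call to the lower side was LOXL3, a lysyl oxidase family gene whose protein binds Snail, at 76.3 and 71.8 in MEK5DD against 312 and 316 in WT (log2 fold change -2.07). Its paralogue LOXL2 rose, at 1167 and 1110 in MEK5DD against 829 and 827 in WT (0.46). The corepressor gene RCOR1 rose by 0.27 on the log2 scale. That call was lost on omitting WT replicate 1 (adjusted p = 0.127) or WT replicate 2 (0.432) and in DESeq2 (0.0852). A fit with no mean-variance trend lost both RCOR1 (0.188) and LOXL2 (0.0761). LOXL3 overlaps HTRA2 and DOK1 and LOXL2 overlaps ENTPD4, which are also listed, so some reads counted for them may come from those genes. Other transcription factors linked to the mesenchymal switch had 14 tested genes of 18. Of these 3 were called higher and 3 lower (42.9% called, against 14.2% of all tested genes, median 0.01). TEAD4, a partner of YAP, had 928 and 933 in MEK5DD against 600 and 569 in WT (0.67), and KLF8, a repressor linked to CDH1 silencing, 354 and 397 in MEK5DD against 263 and 248 in WT (0.55). SOX4 had 7290 and 6807 in MEK5DD against 5730 and 5325 in WT (0.35), and SOX9 154 and 134 in MEK5DD against 181 and 240 in WT (-0.54). Omitting WT replicate 2 ended both calls (adjusted p = 0.128 for SOX4 and 0.394 for SOX9), and DESeq2 that of SOX9 (0.0993). With no trend KLF8 (0.0815), SOX4 (0.135) and SOX9 (0.189) did not pass. SNAI3, another SNAI family gene in this list, had 87.2 and 77.7 in MEK5DD against 78.4 and 72.9 in WT and did not pass (0.12, adjusted p = 0.709).

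FN1 encodes fibronectin, a secreted glycoprotein that cells assemble into fibrils through integrins, and human embryonic stem cells make it themselves. Its normalised count was 4661 and 5039 in MEK5DD libraries, against 6826 and 7035 in WT libraries. Both MEK5DD values lay below both WT values, and replicates differed by 0.11 in MEK5DD and 0.04 in WT on the log2 scale. The means were 4850 ± 267 in MEK5DD and 6930 ± 147 in WT (SD, n = 2 each). FN1 fell by 0.52 on the log2 scale (SE 0.06, 95% interval -0.65 to -0.38, adjusted p = 0.000199 from limma). In percent the interval runs from -36.4 to -23.1. The log2 fold change was between -0.57 and -0.46 in the 15 alternative fits. It passed in 14 of them, the exception being the fit with no mean-variance trend (adjusted p = 0.0740). Of all tested genes 13.7% had a larger absolute change. SNAI1 thus rose while FN1 fell, whereas the background pattern given above has both high in mesenchymal cells.

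The genes that receive or assemble fibronectin had 15 tested members of 18. Of these 3 were called higher and 0 lower by limma, with a median of 0.03. That is 20% called, beside 14.2% of all tested genes. At an unadjusted p under 0.05, and by edgeR and DESeq2, 0 were lower as well. All 3 higher ones were integrin subunit genes. ITGB5 had 8628 and 8123 in MEK5DD against 6351 and 6529 in WT (log2 fold change 0.38). ITGA5 and ITGB1, which together form the main fibronectin receptor, rose by 0.37 and 0.28. ITGA5 did not pass on omitting WT replicate 1 (adjusted p = 0.176) or WT replicate 2 (0.166) or in DESeq2 (0.108). ITGB1 did not pass on omitting WT replicate 1 (0.198) or WT replicate 2 (0.129) or after quantile normalisation (0.0601). With no trend ITGB5 (0.105), ITGA5 (0.0982) and ITGB1 (0.177) all failed to pass.

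Other mesenchymal effector genes had 24 tested members of 26. Of these 9 were called higher and 1 lower (41.7% called, against 14.2% of all tested genes, median 0.11). The intermediate filament gene VIM had 1430 and 1198 in MEK5DD against 454 and 444 in WT, a 2.91-fold rise. The actin-binding genes TAGLN and CALD1 rose by 1.02 and 0.68, and the collagen gene COL1A2 by 0.75. MMP2, the 1 gene called lower, had 1103 and 1010 in MEK5DD against 1392 and 1510 in WT (-0.46). With no trend it did not pass. FN1 is often read together with these genes as a mesenchymal marker. It stood opposite to the 4 rises named here and on the same side as MMP2. Omitting either WT library left 7 of these 9 rises, and a fit with no trend left 3, CALD1 not among them (adjusted p = 0.0899). VIM and TAGLN overlap VIM-AS1 and PCSK7, which are also listed, so their reads are not certain to be theirs alone. Of 12 fibroblast markers 7 were listed, with summed normalised counts of 8497 to 8774 in MEK5DD and 7188 to 7263 in WT, most of it THY1. COL6A3, COL1A2 and COL1A1 were called higher. The other 4 did not pass: THY1 (0.10), PDGFRA (0.10), PDGFRB (-0.39) and S100A4 (0.69). The defining fibroblast markers DCN, LUM, COL3A1, POSTN and FAP were not analysed here, and the part of such cells in the result was not tested.

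CDH1, the gene for E-cadherin, had normalised counts of 8285 and 8323 in MEK5DD libraries, against 7887 and 7882 in WT libraries. The values within each pair were almost equal, and both MEK5DD values lay above both WT values. The log2 fold change was 0.07 (SE 0.06, 95% interval -0.05 to 0.20, adjusted p = 0.430 from limma), and it did not pass in any of the 15 alternative fits. In percent that interval reaches from -3.27 to 14.7, so only a small loss of CDH1 RNA lies inside it. Among tested genes 75.2% had a larger absolute change. CDH1 lies on chromosome 16 (GRCh38, 68737225 to 68835548, plus strand). A listed pseudogene, FTLP14, lies inside it and had a mean of 12.8 ± 2.53 in MEK5DD and 12.3 ± 1.24 in WT (SD, n = 2 each).

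CDH2, the N-cadherin gene, had 1286 and 1250 in MEK5DD libraries, against 1375 and 1437 in WT libraries. Both MEK5DD values were below both WT values, and replicates differed by 0.04 in MEK5DD and 0.06 in WT on the log2 scale. Its log2 fold change was -0.15 (SE 0.07, 95% interval -0.30 to 0.01, adjusted p = 0.196 from limma). It passed in 1 of 15 alternative fits, the one that omitted MEK5DD replicate 1 (-0.17, adjusted p = 0.0401). Per kilobase of exon, CDH1 stood 5.16 and 5.34 times as high as CDH2 in MEK5DD libraries and 4.60 and 4.39 times in WT libraries. The E-cadherin transcript was thus in excess of the N-cadherin transcript in every library, by more in MEK5DD than in WT, a difference of 0.22 in the log2 ratio that was not tested.

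Among the partners of these cadherins 16 of 17 genes were tested. Calls were 3 higher and 5 lower (50% called, against 14.2% of all tested genes, median -0.12). The lower ones included CDH6, a cadherin gene of embryonic kidney and neural crest (19.1 and 25.9 in MEK5DD against 62.5 and 62.5 in WT), the neural alpha-catenin gene CTNNA2 (-0.95) and the delta-catenin gene CTNND2 (-0.89). CDH4, the R-cadherin gene, fell by 0.51 on the log2 scale. Its log2 fold change was -0.48 once WT replicate 2 was omitted, but that fit did not call it. The p120-catenin gene CTNND1, whose protein holds cadherins at the surface, rose by 0.34. Its log2 fold change was 0.33 without WT replicate 1 and 0.34 without WT replicate 2, but neither fit called it. With no trend CTNNA2 (adjusted p = 0.132), CTNND2 (0.0634), CDH4 (0.0655) and CTNND1 (0.116) did not pass. CTNNA2 and CDH4 overlap other listed genes (LRRTM1 and AL160412.1). Beside these catenin genes, of 11 neuroectoderm markers 8 were listed and their summed normalised counts were 9426 to 10013 in MEK5DD and 10431 to 10613 in WT, most of it NES. Of the 7 of them tested, SOX1, SOX3, SIX6, SIX3, MAP2 and ZIC1 were called lower and NES higher (0.35, adjusted p = 0.00237). PAX6, listed but below the filter on low values, was at 6.36 and 5.98 in MEK5DD and 1.76 and 3.12 in WT. NES did not pass on omitting WT replicate 1 (0.0738) or with no trend (0.120). The part of these markers in the catenin values was not tested.

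**Figure D2:**
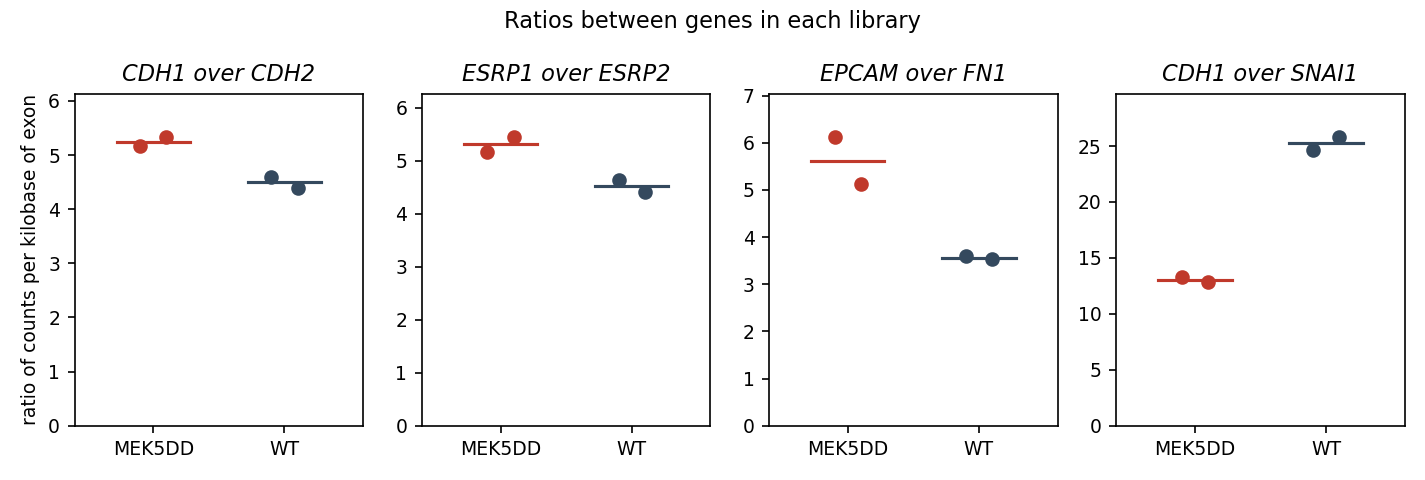
Ratio of normalised counts per kilobase of annotated exon (vertical axes, each from 0) for 4 pairs of genes in each MEK5DD library (left, red) and each WT library (right, dark blue), with the mean of each pair as a line. CDH1 over CDH2 is 5.16 and 5.34 in MEK5DD against 4.60 and 4.39 in WT, and CDH1 over SNAI1 is 13.3 and 12.8 in MEK5DD against 24.7 and 25.8 in WT.

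EPCAM encodes a surface glycoprotein that marks undifferentiated human embryonic stem cells and most simple epithelia. Its normalised count was 4154 and 3753 in MEK5DD libraries, against 3577 and 3607 in WT libraries. Both MEK5DD values were above both WT values. The MEK5DD replicates were 0.15 apart on the log2 scale, the widest gap among the 7 genes. Over all tested genes the median gap in MEK5DD was also 0.15. Its log2 fold change was 0.14 (SE 0.07, 95% interval -0.01 to 0.28, adjusted p = 0.209 from limma). In 1 of 15 alternative fits it passed, when MEK5DD replicate 2 was omitted (0.21, adjusted p = 0.000171), and on omitting MEK5DD replicate 1 it was 0.06 (adjusted p = 0.394). EPCAM had the highest normalised count per kilobase of exon of the 7 genes, at 1649 and 1490 in MEK5DD and 1420 and 1432 in WT. Relative to FN1 it stood 6.13 and 5.12 times as high in MEK5DD and 3.60 and 3.52 times in WT on that scale. The difference of 0.65 in the log2 ratio was not tested. How high the ratio stands depends on the exon lengths used, 2519 bases for EPCAM and 17315 for FN1. EPCAM lies on chromosome 2 (GRCh38, 47345158 to 47387601, plus strand).

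EPCAM is cut by surface and intramembrane proteases, and its released tail works with FHL2 in the nucleus. Of 12 such genes 11 were tested, with 1 called higher and 3 lower (36.4% called, against 14.2% of all tested genes, median 0.04). The protease gene BACE2 fell, at 184 and 174 in MEK5DD against 292 and 296 in WT (log2 fold change -0.71). FHL2 and the presenilin gene PSEN2 each fell by 0.47 on the log2 scale and the tetraspanin gene CD9 rose by 0.24. None of these 3 passed on omitting WT replicate 1 (FHL2 0.0753, PSEN2 0.197 and CD9 0.205 as adjusted p) or WT replicate 2 (FHL2 0.209, PSEN2 0.0550 and CD9 0.356). FHL2 also missed the threshold on omitting MEK5DD replicate 2 (0.0735) and in DESeq2 (0.149), PSEN2 in DESeq2 (0.0920) and CD9 after quantile normalisation (0.0567). With no trend FHL2 (0.152), PSEN2 (0.0898) and CD9 (0.231) did not pass, while BACE2 did.

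Epithelial genes around CDH1 and EPCAM were called in both directions, with more calls higher than lower. Tight junction and desmosome genes had 21 tested members of 22. Calls were 4 higher and 1 lower (23.8% called, against 14.2% of all tested genes, median 0.07). The plakophilin gene PKP3 had 92.7 and 76.7 in MEK5DD against 37.0 and 29.2 in WT, and the desmosome-linked gene PERP 2584 and 2359 in MEK5DD against 1623 and 1587 in WT. F11R, a junctional adhesion molecule gene, rose by 0.30, and the occludin gene OCLN fell by 0.32 on the log2 scale. Neither passed on omitting WT replicate 1 (adjusted p 0.0708 for F11R and 0.249 for OCLN) or WT replicate 2 (0.203 for each), nor did OCLN in DESeq2 (0.111). Epithelial identity and polarity genes had 22 tested members of 23. Calls were 4 higher and 3 lower (31.8% called, against the same 14.2%, median 0.08). KRT8 and KRT18, keratin genes that overlap each other and have many near-identical pseudogenes, rose by 0.61 and 0.62 on the log2 scale. KRT7 had 42.7 and 34.9 in MEK5DD against 79.3 and 62.5 in WT, a fall that did not pass on omitting WT replicate 1 (adjusted p = 0.225) or in DESeq2 (0.119). The polarity gene PARD6B rose by 0.41, but did not pass on omitting WT replicate 1 (0.119) or WT replicate 2 (0.165) or in DESeq2 (0.115). GRHL2 (log2 fold change -0.35) and ERBB3 (-0.27) were the other lower calls among the identity and polarity genes. Neither was called in every fit that left out 1 library, and neither passed with no trend. With no trend none of PKP3, PERP, F11R, OCLN, KRT8, KRT18, KRT7 and PARD6B passed either, with adjusted p from 0.0504 (PKP3) to 0.199 (F11R).

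ESRP1 and ESRP2 encode paralogous RNA-binding proteins that set epithelial exon choice in FGFR2, CD44 and CTNND1 transcripts. ESRP1 had 4395 and 4397 in MEK5DD libraries, against 3801 and 3908 in WT libraries. The MEK5DD values were nearly equal and both above both WT values. The log2 fold change was 0.19 (SE 0.06, adjusted p = 0.0533 from limma), just outside the threshold, although the 95% interval for this gene alone ran from 0.06 to 0.32. ESRP1 passed in 4 of 15 alternative fits. These were the fit restricted to means of 50 or more (adjusted p = 0.0472), those that omitted MEK5DD replicate 1 (0.000786) or MEK5DD replicate 2 (0.000659), and the one with replicate number as a term. ESRP1 lies on chromosome 8 (GRCh38, 94641074 to 94707466, plus strand).

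ESRP2 had 970 and 920 in MEK5DD libraries, against 934 and 1012 in WT libraries. The groups overlapped, which no other of the 7 genes did. Its log2 fold change was -0.04 (SE 0.08, 95% interval -0.21 to 0.13, adjusted p = 0.789 from limma), and it passed in 0 of 15 alternative fits, edgeR and DESeq2 included, its unadjusted p being 0.614. ESRP2 lies on chromosome 16 (GRCh38, 68229111 to 68238102, minus strand) and overlaps NFATC3 on the other strand. NFATC3 is also listed (419 and 483 in MEK5DD, against 503 and 472 in WT), and with the strand setting unknown here, reads of the overlap cannot be assigned. Per kilobase of exon ESRP1 stood 5.17 and 5.45 times as high as ESRP2 in MEK5DD and 4.65 and 4.40 times in WT. ESRP1 was thus the main ESRP transcript in all 4 libraries.

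Other splicing regulators of this switch had 20 tested members of 20, with 1 called higher and 3 lower (median -0.05). That is 20% called, beside 14.2% of all tested genes. MBNL3, a muscleblind gene, had 31.8 and 33.9 in MEK5DD against 82.8 and 75.0 in WT. NOVA1 and PTBP2, splicing regulators of neurons, fell by 0.77 and 0.50 on the log2 scale. HNRNPH1 rose by 0.19. Its log2 fold change was 0.19 without WT replicate 1 and 0.20 without WT replicate 2, but neither fit called it. It also did not pass with upper-quartile factors (adjusted p = 0.0612) or in DESeq2 (0.0956). With no trend NOVA1 (0.0952), PTBP2 (0.0775) and HNRNPH1 (0.247) did not pass. MBNL3 overlaps RAP2C-AS1, which is also listed. Of 13 genes known for ESRP-dependent exons all 13 were tested. Calls were 3 higher and 2 lower (38.5% called, against 14.2% of all tested genes, median 0.04). CD44, an adhesion receptor gene, had 66.3 and 91.7 in MEK5DD against 28.2 and 25.0 in WT, a 2.87-fold rise. ARHGEF11 fell by 0.42 on the log2 scale and MAGI1 by 0.30, though MAGI1 did not pass on omitting WT replicate 1 (adjusted p = 0.170) or WT replicate 2 (0.174). With no trend neither ARHGEF11 (0.106) nor MAGI1 (0.131) passed. FGFR2 had 2091 and 2064 in MEK5DD against 2043 and 1988 in WT. The table gives 1 value a gene, so exon choice was not measured.

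**Figure D3:**
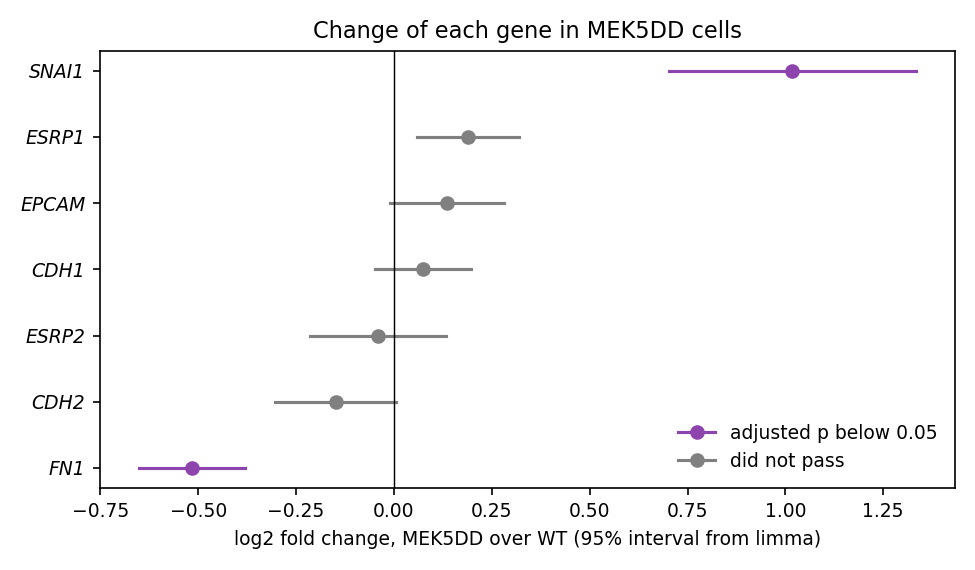
Log2 fold change of MEK5DD over WT (horizontal axis) for the 7 genes, with the 95% interval of each gene alone from limma. SNAI1 (1.02) and FN1 (-0.52) are drawn in purple as passing, and the other 5 genes, in grey, lie between -0.15 and 0.19.

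Levels can be ordered per kilobase of exon, counted over all annotated exons of a gene. In all 4 libraries the order was EPCAM, CDH1, ESRP1, FN1, CDH2, ESRP2 and SNAI1. EPCAM was 1490 to 1649 and CDH1 1341 to 1347 in MEK5DD, against 1420 to 1432 and 1276 to 1277 in WT. Those 2 adhesion transcripts thus stood highest throughout, with no overlap between them. ESRP1 followed at 902 in both MEK5DD libraries, against 780 and 802 in WT. FN1 stood at 269 and 291 in MEK5DD, against 394 and 406 in WT. CDH2 was at 260 and 252 in MEK5DD and 278 and 290 in WT, so on this scale FN1 was nearer to CDH2 in MEK5DD. The lengths used were 17315 bases for FN1 and 4950 for CDH2. They count the exons of every annotated transcript, and which transcripts were made was not measured. Order and closeness between genes therefore depend on the lengths used, while the change of a gene between groups does not. ESRP2 came next at 174 and 165 in MEK5DD and 168 and 182 in WT. CDH1 and EPCAM ranked near the top of annotated genes, at percentiles 97.6 to 98.1 in MEK5DD and 97.6 to 98.0 in WT. FN1 was at the 84.9 and 86.3 percentile in MEK5DD, against 90.5 and 90.9 in WT. The ratio of CDH1 to SNAI1 was 13.3 and 12.8 in MEK5DD, against 24.7 and 25.8 in WT, a log2 difference of -0.95 that was not tested.

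**Figure D4:**
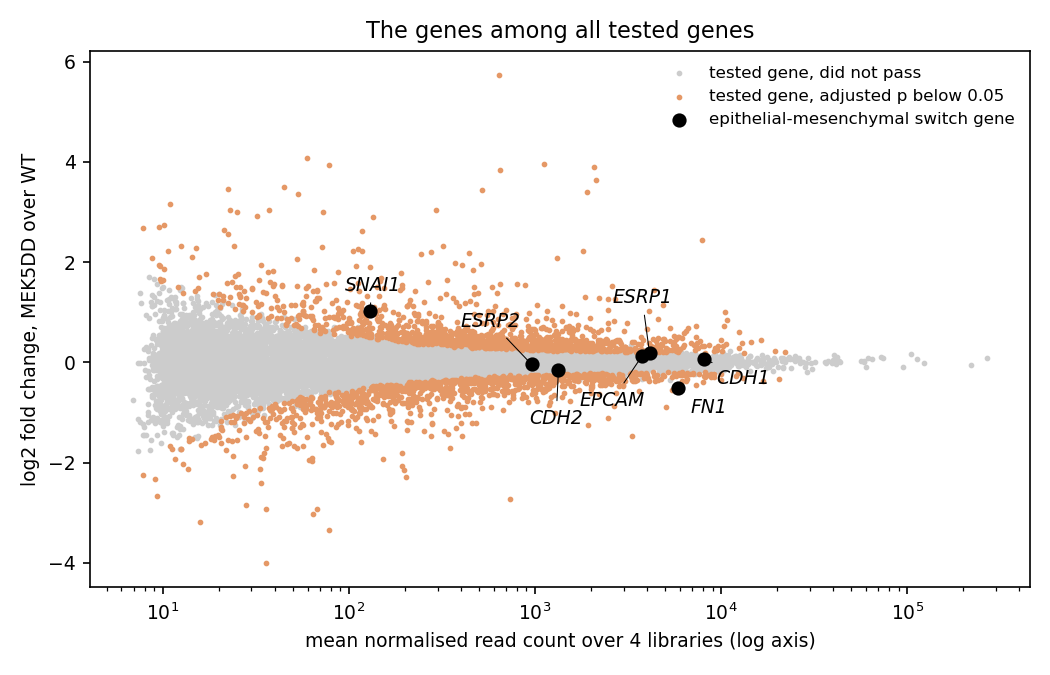
Log2 fold change of MEK5DD over WT (vertical axis) against mean normalised read count over the 4 libraries (horizontal log axis) for 15721 tested genes, with those passing in orange and the 7 genes in black. SNAI1 (1.02) and FN1 (-0.52) lie among the passing genes, and CDH1, EPCAM, ESRP1, CDH2 and ESRP2 in the band that did not pass.

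The genes most like SNAI1 and FN1 over the 4 libraries were sought among protein-coding genes with a mean of at least 100, by Euclidean distance between centred log2 values. For SNAI1 they were KDR, a VEGF receptor gene (distance 0.013), and EZR, the gene of the membrane-cytoskeleton linker ezrin (distance 0.082). KDR had 5366 and 5608 in MEK5DD against 2757 and 2669 in WT, and EZR 14340 and 13831 in MEK5DD against 7141 and 6898 in WT. For FN1 they were PRDM11 (distance 0.020) and TMEM170B (distance 0.040). PRDM11 had 120 and 131 in MEK5DD against 176 and 179 in WT, and TMEM170B 361 and 402 in MEK5DD against 548 and 552 in WT. The PRDM11 call did not hold on omitting WT replicate 1 (adjusted p = 0.119) or WT replicate 2 (0.152) or in DESeq2 (0.143), and with no trend neither PRDM11 (0.0764) nor TMEM170B (0.0774) passed. With 4 libraries in 2 groups such likeness says mainly that the fold is near the same.

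**Figure D5:**
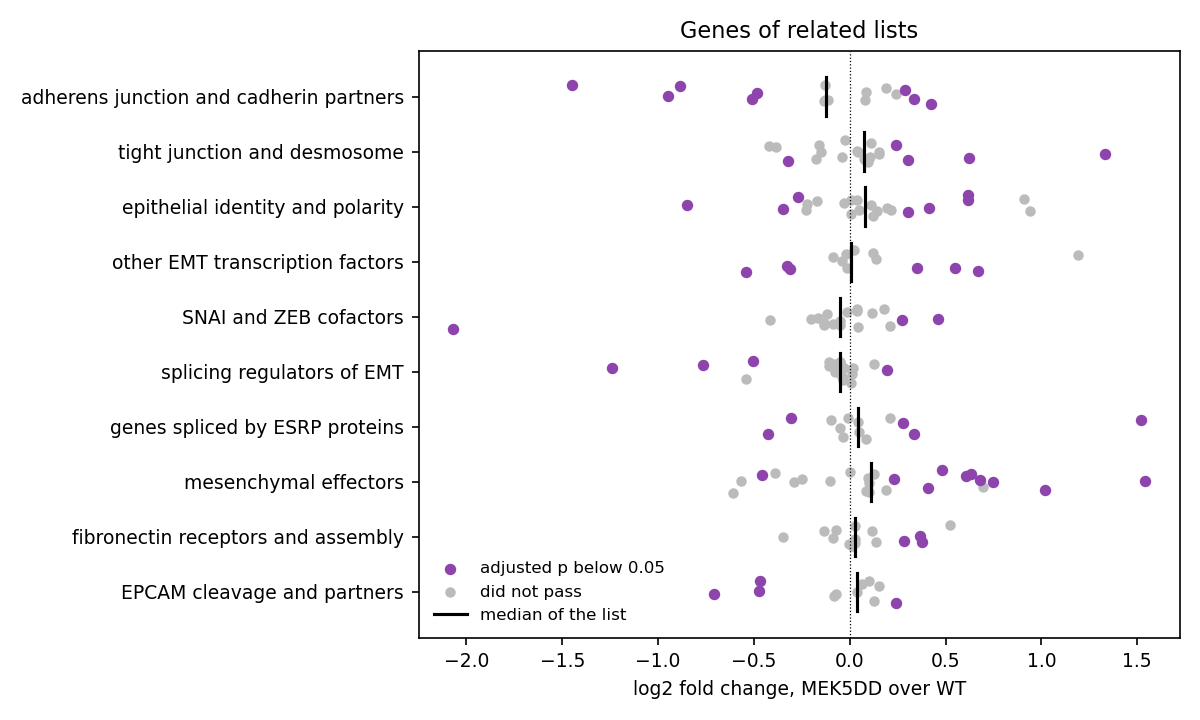
Log2 fold change of MEK5DD over WT (horizontal axis) for each tested gene of 10 related lists (rows), purple where the adjusted p was below 0.05 and grey where not, with the list median as a black line. List medians lie between -0.12 (adherens junction and cadherin partners) and 0.11 (mesenchymal effectors), with calls on both sides in every list but that of fibronectin receptors.

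Over the 10 related lists 172 genes were tested, and 32 were called higher and 22 lower, which is 31.4% against 14.2% of all tested genes. By list the share called ran from 15.8% (SNAI and ZEB cofactors) to 50% (adherens junction and cadherin partners). No test was made of these shares, since the lists were chosen with results of these data known. Of these 54 calls, 28 passed in each of the 4 fits that left out 1 library, 43 in DESeq2 and 9 with no mean-variance trend. For comparison, of all 2226 calls among tested genes 1358 passed in DESeq2 and 397 with no mean-variance trend. The median log2 fold change of the 172 genes was 0.01. Markers of other cell types were checked beside these lists: the 7 listed of 9 primitive streak and mesoderm markers summed to 5650 to 5908 in MEK5DD and 2868 to 2980 in WT, most of it KDR. The 5 listed of 10 neural crest markers summed to 2942 to 2999 in MEK5DD and 2201 to 2281 in WT. Most of that is ETS1, at 1867 and 1947 in MEK5DD against 1158 and 1143 in WT, while SOX9 was called lower and the list median was 0.035. The 6 listed of 10 amnion and trophoblast markers summed to 334 to 340 in MEK5DD and 521 to 547 in WT. GABRP was the largest part, at 154 and 174 in MEK5DD against 295 and 337 in WT. Of the 5 markers tested, GABRP, IGFBP3 (-1.29) and KRT7 (-0.85) were called lower. GATA3 was called higher (39.1 and 35.9 in MEK5DD against 7.05 and 15.6 in WT), and 1 did not pass. The share called was 80%, against 14.2% of all tested genes. TFAP2A, below the filter on low values, was at 9.09 and 14.0 in MEK5DD and 6.17 and 2.08 in WT. With no trend GABRP (adjusted p = 0.0511), GATA3 (0.107) and KRT7 (0.0963) did not pass. Of 6 streak and mesoderm markers tested, KDR and MIXL1 were called higher, LHX1 was called lower and 3 did not pass. MIXL1 had 165 and 201 in MEK5DD against 89.8 and 94.8 in WT (0.98). LHX1 (log2 fold change -1.65) rests on 4 to 33 reads a library. With no trend neither MIXL1 (adjusted p = 0.0513) nor LHX1 (0.183) passed. TBXT, a streak gene below the filter on low values, was at 3.63 and 5.98 in MEK5DD and 4.40 and 4.17 in WT. SOX10 of the neural crest was not analysed here. Their part in the changes of SNAI1, FN1 and the related lists was not tested.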

How the data were processed

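Per the labels' protocols, 4 libraries of poly(A) RNA gave paired-end NextSeq 500 reads. Trimmomatic 0.36, STAR, featureCounts 1.5.3, DESeq2 1.26.0 and build hg38 are named, without their roles, per the submitters' processing notes. The deposited table holds a signal, gene counts normalised by the authors. Within a library, 100% of genes came out whole (to within 0.001) when divided by the lowest value, and these quotients are called recovered reads. No listed gene had 0 reads in any library. The strand setting and annotation of the counting are not stated in the sources used here.

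A gene was tested if 2 or more libraries had a value of 10 or more. Tests used limma 3.58.1 (R 4.3.3), two-sided, with log2(value + 1) as the response, a trend of variance on mean and no covariate. Folds on this scale understate the change of low genes. Coordinates and exon lengths came from GENCODE v29 (GRCh38), which held 97.8% of symbols, and promoter windows from RefSeq (GRCh38.p14), where 4 of the 10 genes had one (CDH2, FN1, ZEB1 and ZEB2). Alternative fits changed the pseudocount, filter, scaling or variance model, omitted each library, added a replicate term, or used edgeR 4.0.16 and DESeq2 1.42.0 on recovered reads. Named genes were the 7 genes, up to 4 called genes per list with the largest change and the 2 genes nearest to each called one. FGFR2, SNAI3, TBXT, TFAP2A, NFATC3, FTLP14, MMP2, GRHL2, ERBB3 and the neuroectoderm genes PAX6, SIX3, ZIC1 and NES were named outside this rule, with their values known. So were the fibroblast markers THY1, PDGFRA, PDGFRB and S100A4. None of these is among the 56 other named genes counted below. The genes and lists were chosen with earlier results of these data known. The procedure was tested on simulated data.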

Additional observations from a re-analysis of the deposited data

How the results depend on the processing

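SNAI1 kept its direction and call in all 15 alternative fits, and FN1 in all but the fit without the mean-variance trend. The number of genes called over the whole table was 2226, and it was 439 without the trend, 1358 with DESeq2, 2306 with edgeR and 3349 with the replicate block. With 1 library left out, where the lone library of a group is assumed to vary like the other group, it ranged from 1160 to 4629. Among the 7 genes, 1 was called higher, and 2 were with a mean filter of 50 and with the replicate block (ESRP1, adjusted p = 0.0168), and 1 to 3 with 1 library left out. The number called lower was 1, and it was 0 without the trend and 1 to 2 with 1 library left out. ESRP2 changed sign in those fits, its log2 fold change running between -0.10 without WT replicate 1 and 0.017 without WT replicate 2. The cause was not tested. The labels' replicate numbers do not say that libraries are paired, and replicate differences of the 2 groups correlated at 0.047 over 15721 genes and at 0.124 over the 10787 with a mean of at least 100. Of 56 other named genes, 38 lost their call without the trend, 17 without WT replicate 1, 18 without WT replicate 2 and 0 without MEK5DD replicate 1. With DESeq2 11 did, beside 1 that has no adjusted p. Over the whole table, 397 of the 2226 calls were kept without the trend and 1358 with DESeq2. Depth limits SNAI1 most, at 80 to 187 reads a library.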
